A study of Sus scrofa with 8 samples.

Results

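The miR-181 family was followed in the porcine corpus luteum, the ovarian gland that secretes progesterone, on day 14 of the estrous cycle and day 14 of pregnancy. All 10 targets of a 1-colour Agilent miRNA array that bear the name miR-181 were taken, of 686 targets in all, whatever their letter or strand. They comprised 5 porcine entries (prefix ssc), 3 human entries (hsa) and 2 mouse entries (mmu), and every one of them is accounted for here. The cyclic group held 4 gilts that were not inseminated and the pregnant group 4 gilts inseminated at their second estrus, all crossbred, 6 to 8 months old and from a single herd. Each array carried RNA of whole luteal tissue from 1 gilt, so that fewer cells of a type and less RNA per cell cannot be told apart. The labels call the samples biological replicates.

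miRNAs are short RNAs that bind mRNAs mainly through the bases of their seed, near the 5′ end, and lower the output of those mRNAs. The miR-181 family consists of miR-181a, miR-181b, miR-181c and miR-181d, whose 5p strands share a seed and differ in few other bases. It is best known from lymphocytes, where miR-181a lowers phosphatases of the T cell receptor pathway, and from endothelium, where miR-181b restrains NF-kB signalling. In the pig assembly Sscrofa11.1, RefSeq lists 6 miR-181 loci in 3 neighbouring pairs. The pairs are MIR181A-1 with MIR181B-1, MIR181A-2 with MIR181B-2, and MIR181C with MIR181D. The MIR181A-2 pair lies within NR6A1, a gene of an orphan nuclear receptor, and the MIR181A-1 pair within LOC110255652, whereas no listed gene contains the MIR181C pair. An array probe for mature miR-181a or miR-181b cannot say from which of its loci the RNA came. Probe sequences were not used here, and how far a probe of one family member also binds another was not tested.

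The arrays lay on 3 slides. Slide 1 held pregnant replicates 1 and 2 and was scanned on a day of its own, slide 2 held cyclic replicates 1 and 2, and slide 3 held the remaining arrays, 2 per group. Between 22.8% and 28.8% of the spots of an array were well above background. The gonadal miR-202-3p was detected on all 8 arrays, while 0 of the 6 entries of skeletal muscle miRNAs and 0 of the 2 entries of the liver miRNA miR-122 were detected on any array. Levels are given as log2 of the background-subtracted intensity relative to the 75th percentile of the array, so that 0 stands for that percentile. Values below a floor of −4.67 were set to it. Detection on an array required at least 0.5 of the spots of the brightest probe to be well above background, and 211 targets detected on at least 4 arrays were tested.

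Of the 10 miR-181 entries, 5 were tested, namely the human and the porcine entry of miR-181a and the porcine entries of miR-181b, miR-181c and miR-181d-5p. Of these 5, only hsa-miR-181a-5p passed, being higher in pregnancy, and 4 did not pass. Among all tested targets, 24 (11.4%) passed limma's test at a Benjamini-Hochberg adjusted p under 0.05, 14 (6.64%) of them higher in pregnancy and 10 (4.74%) lower. The share of the family that passed was thus 1 of 5 against that background, which is too few entries for a comparison of shares. An unadjusted p under 0.05 was found for 68 of all tested targets (32.2%), 48 higher (22.7%) and 20 lower (9.48%). With the 75th percentile taken over targets in place of probes, 24 targets passed as well, 21 of them shared, but 11 were higher and 13 lower. Leaving out single arrays moved the number of targets that passed from 5, without cyclic replicate 3, to 78, without cyclic replicate 1.

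The entry hsa-miR-181a-5p represents the main strand of miR-181a under its human name. Its level was −1.10, −1.64, −1.35 and −1.44 on cyclic replicates 1 to 4 and −0.77, −0.76, −0.74 and −0.77 on pregnant replicates 1 to 4. All pregnant arrays lay above all cyclic ones, the nearest cyclic array being replicate 1. Groups that did not overlap in this direction were found in 12.8% of the tested targets. The mean was −1.38 ± 0.23 in the cycle and −0.76 ± 0.012 in pregnancy (SD, n = 4 per group). After scaling, the pregnant arrays were thus closer to each other than the cyclic arrays. Before scaling, the intensity of the brightest probe was 84.4 ± 18.4 in the cycle and 119.7 ± 23.8 in pregnancy (mean ± SD). These are SDs of intensities around unlike means and cannot be set against the SDs of log2 levels. The level was 1.54-fold higher in pregnancy, with a log2 difference of 0.62 ± 0.14 (SE, 95% interval 0.32 to 0.93, limma, adjusted p = 0.0250). It ranked as 18 from the top of the 211 differences, whose median was 0.08, and relative to that median the rise was 0.54.

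**Figure D1:**
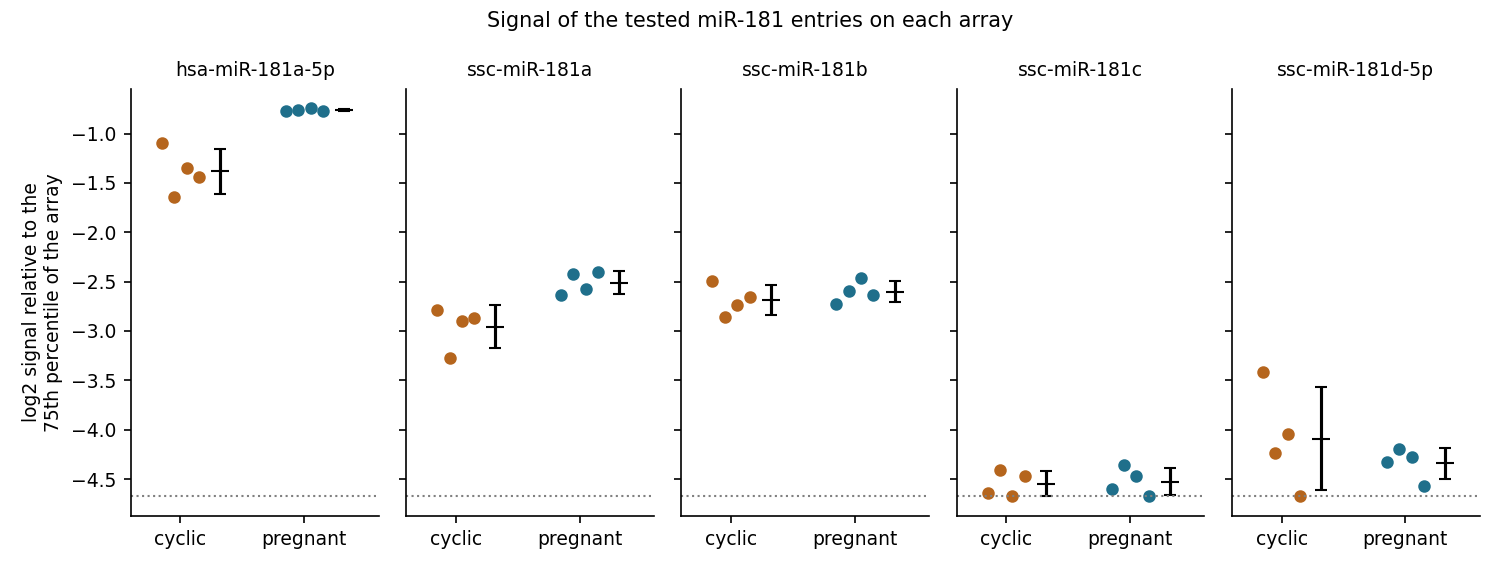
Level of the 5 tested miR-181 entries on each array, as log2 signal relative to the 75th percentile of the array, with cyclic arrays in brown and pregnant arrays in blue. Bars give mean ± SD (n = 4), and the dotted line is the floor of −4.67; both miR-181a entries separate the groups, and miR-181c and miR-181d-5p lie near the floor.

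The call of hsa-miR-181a-5p depended on the arrays and on how slide and scan day entered the fit. It passed in 1 of the 8 fits that left out an array, the fit without cyclic replicate 1 (0.72, adjusted p = 0.00155), while in the others the difference was 0.54 to 0.63 with adjusted p from 0.0565 to 0.0851. It was 0.64 within slide 3, the slide that held both groups (2 arrays per group, adjusted p = 0.0659), and 0.62 when scan day was entered as a block (adjusted p = 0.105). With slide as a random block it passed (0.62, adjusted p = 0.0220). The sign was positive in all 25 other settings run, with values from 0.40 to 0.85. Several of these could not move the estimate from 0.62, namely the lower floor, the other filters, the replicate block and the fit without trend. Before scaling, the intensity of its brightest probe was 87.1, 81.7, 62.0 and 106.9 on the cyclic arrays and 135.5, 107.5, 143.3 and 92.5 on the pregnant arrays. At that stage the groups overlapped, pregnant replicate 4 lying below cyclic replicate 4. The intensity at the 75th percentile, by which the arrays were scaled, was also low on pregnant replicate 4 (158) and highest on cyclic replicate 4 (291). Without scaling, the difference was 0.51 (adjusted p = 0.333).

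The porcine entry ssc-miR-181a bears the name of the same miRNA and has probes of its own. Its level was −2.78, −3.27, −2.90 and −2.86 on cyclic replicates 1 to 4, and −2.64, −2.42, −2.58 and −2.40 on pregnant replicates 1 to 4. Here too all pregnant arrays lay above all cyclic arrays, and cyclic replicate 2 was the lowest of all 8, as it was for the human entry. The means were −2.96 ± 0.22 and −2.51 ± 0.11 (SD, n = 4). The difference of 0.44 ± 0.16 (95% interval 0.09 to 0.80, 1.36-fold) did not pass in limma's test (adjusted p = 0.0815, unadjusted p = 0.0180). It passed in 3 of 25 other settings, namely without cyclic replicate 1 (0.50, adjusted p = 0.0370), with the authors' deposited table (0.49, adjusted p = 0.0484) and with the 75th percentile over all probes (0.67, adjusted p = 0.0158). That last scaling moved the median of all tested targets to 0.31. The difference was smaller with normexp background correction (0.19, adjusted p = 0.571) and without scaling (0.33, adjusted p = 0.602).

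**Figure D2:**
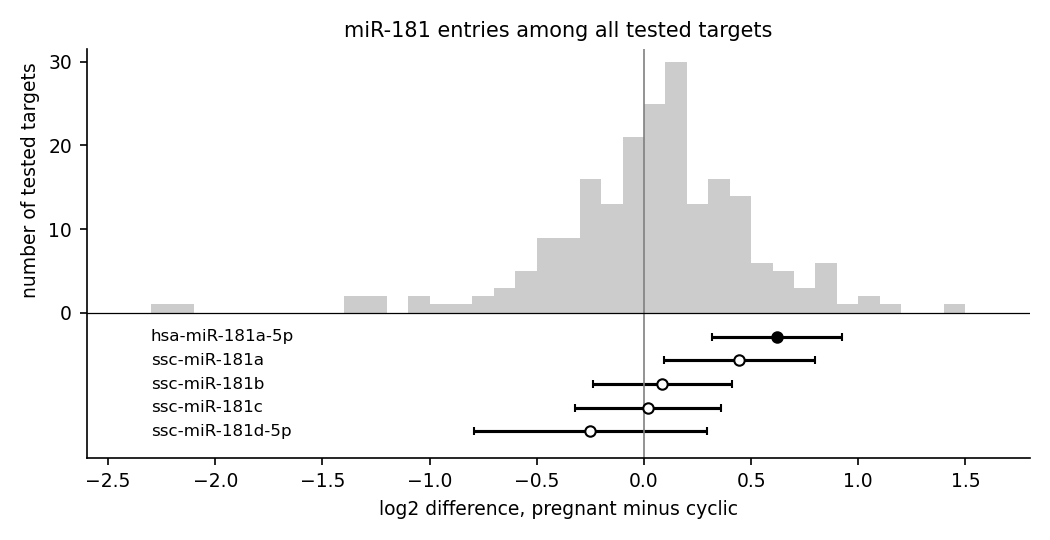
Log2 difference, pregnant minus cyclic, of the 5 tested miR-181 entries (points with 95% intervals, filled where the adjusted p was under 0.05) below the histogram of all 211 tested targets. The human miR-181a entry (0.62) and the porcine one (0.44) lie to the right of the median of 0.08, and the other entries have intervals that include 0.

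Whether the human and the porcine entry of miR-181a changed by different amounts was tested on the log2 difference between them on each array. The human entry minus the porcine entry was 1.69, 1.63, 1.55 and 1.42 on the cyclic arrays and 1.87, 1.67, 1.83 and 1.63 on the pregnant arrays. The groups overlapped, since cyclic replicate 1 lay above pregnant replicates 2 and 4. The mean moved from 1.57 ± 0.12 to 1.75 ± 0.12 (SD, n = 4), a change of 0.18 with a 95% interval from −0.03 to 0.38. An exact 2-sided permutation test over the 70 splits gave p = 0.143, where 0.0286 is the smallest value possible. A difference in response between both entries was therefore not shown, and the interval leaves room for a change of up to 0.38 in the human entry beyond that of the porcine one. In the other 18 settings the value stayed positive, between 0.05 and 0.25, with p from 0.0571 to 0.429. All-probe scaling, no scaling, the lower floor and the replicate block could not move it from 0.18.

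**Figure D3:**
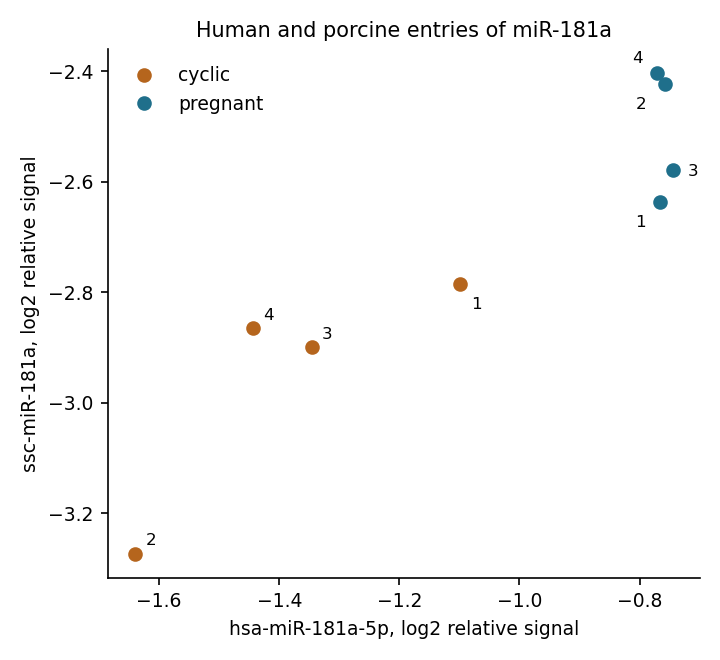
Level of the human entry of miR-181a (x axis) against that of the porcine entry (y axis) on each array, both as log2 signal relative to the 75th percentile of the array, with replicate numbers beside the points. The 4 pregnant arrays sit at −0.77 to −0.74 on the x axis, above and to the right of every cyclic array.

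Each of these entries was printed as 2 probes with up to 10 spots per probe and array. For hsa-miR-181a-5p the brighter probe differed by 0.62 ± 0.14 and the dimmer probe by 0.63 ± 0.15 (limma over 391 probes, adjusted p = 0.0232 and 0.0325), and the groups did not overlap for either. The spots of these probes varied by 4.78% to 10.0% of their mean on an array. For ssc-miR-181a the probes differed by 0.44 ± 0.16 and 0.41 ± 0.18, again with groups that did not overlap but with adjusted p of 0.0786 and 0.125. The brighter one was well above background in all of its 78 spots used, the dimmer one in 52 of 77. Probes of an entry thus differed from each other by less than their standard errors. Both probes read the same RNA on the same arrays, however, so these errors give no test of their agreement.

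The porcine entry of miR-181b, the family member encoded beside miR-181a at both of its loci, was detected on all 8 arrays. Its level was −2.49, −2.86, −2.74 and −2.66 on cyclic replicates 1 to 4 and −2.72, −2.59, −2.46 and −2.63 on pregnant replicates 1 to 4. The groups overlapped, the lowest array being cyclic replicate 2 and the highest pregnant replicate 3. With means of −2.69 ± 0.15 and −2.60 ± 0.11 (SD, n = 4), the difference was 0.09 ± 0.15 (95% interval −0.24 to 0.41, limma, adjusted p = 0.739). The interval includes 0 and changes of up to 1.33-fold upward. Its dimmer probe was well above background in 5 of 75 spots, so the value rests on the brighter probe.

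The entries of the MIR181C pair lay close to the limit of detection. ssc-miR-181c was detected on 1 cyclic array and 3 pregnant arrays, and cyclic replicate 3 and pregnant replicate 4 were at the floor. Its level was −4.64, −4.41, −4.67 and −4.47 on the cyclic arrays and −4.60, −4.36, −4.47 and −4.67 on the pregnant arrays. The groups overlapped, and the difference was 0.02 ± 0.15 (95% interval −0.32 to 0.36, limma, adjusted p = 0.955). With a floor 4 times lower the difference was −0.0095 (limma, adjusted p = 0.974). Its sign differed in 11 of 24 other settings.

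ssc-miR-181d-5p was detected on 3 arrays of each group. The levels were −3.41, −4.24, −4.04 and −4.67 on cyclic replicates 1 to 4, the last of them at the floor, and −4.33, −4.20, −4.27 and −4.57 on pregnant replicates 1 to 4. Cyclic replicate 1 was the highest of all arrays, and the cyclic arrays spanned the whole range of the pregnant ones. The difference was −0.25 ± 0.25 (95% interval −0.79 to 0.29, limma, adjusted p = 0.547), but its size moved with single arrays and settings. It was −0.02 without cyclic replicate 1, −0.44 without cyclic replicate 4 (adjusted p = 0.242) and −0.71 with the scanner's total gene signal (adjusted p = 0.209). The intervals of miR-181c and miR-181d-5p include changes in either direction, and how far their low signal limited the comparison was not tested.

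The other 5 entries are the opposite, 3p strands of the family, which are usually degraded when the 5p strand is loaded into the silencing complex. They are hsa-miR-181a-3p, mmu-miR-181a-2-3p, mmu-miR-181b-2-3p, hsa-miR-181c-3p and ssc-miR-181d-3p. Of the 776 spots used for their 14 probes on the 8 arrays, 0 were well above background, and all 5 entries stood at the floor on every array. Their mean intensities ran from −2.50 to 3.98, while the 95th percentile of the negative control spots was 3.41 to 5.11 per array. The brighter probe of hsa-miR-181a-3p gave intensities of 1.93, 3.46, 3.12 and 3.98 on the cyclic arrays and 0.94, 1.39, 1.86 and 1.78 on the pregnant arrays. Its dimmer probe gave 1.21 to 3.48 on the cyclic arrays and −0.07 to 1.01 on the pregnant arrays. These values are means over spots, whereas the 95th percentile of the negative controls is that of single spots. With 0 spots well above background they give no level for the strand, and a difference between the groups was not tested.

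**Figure D4:**
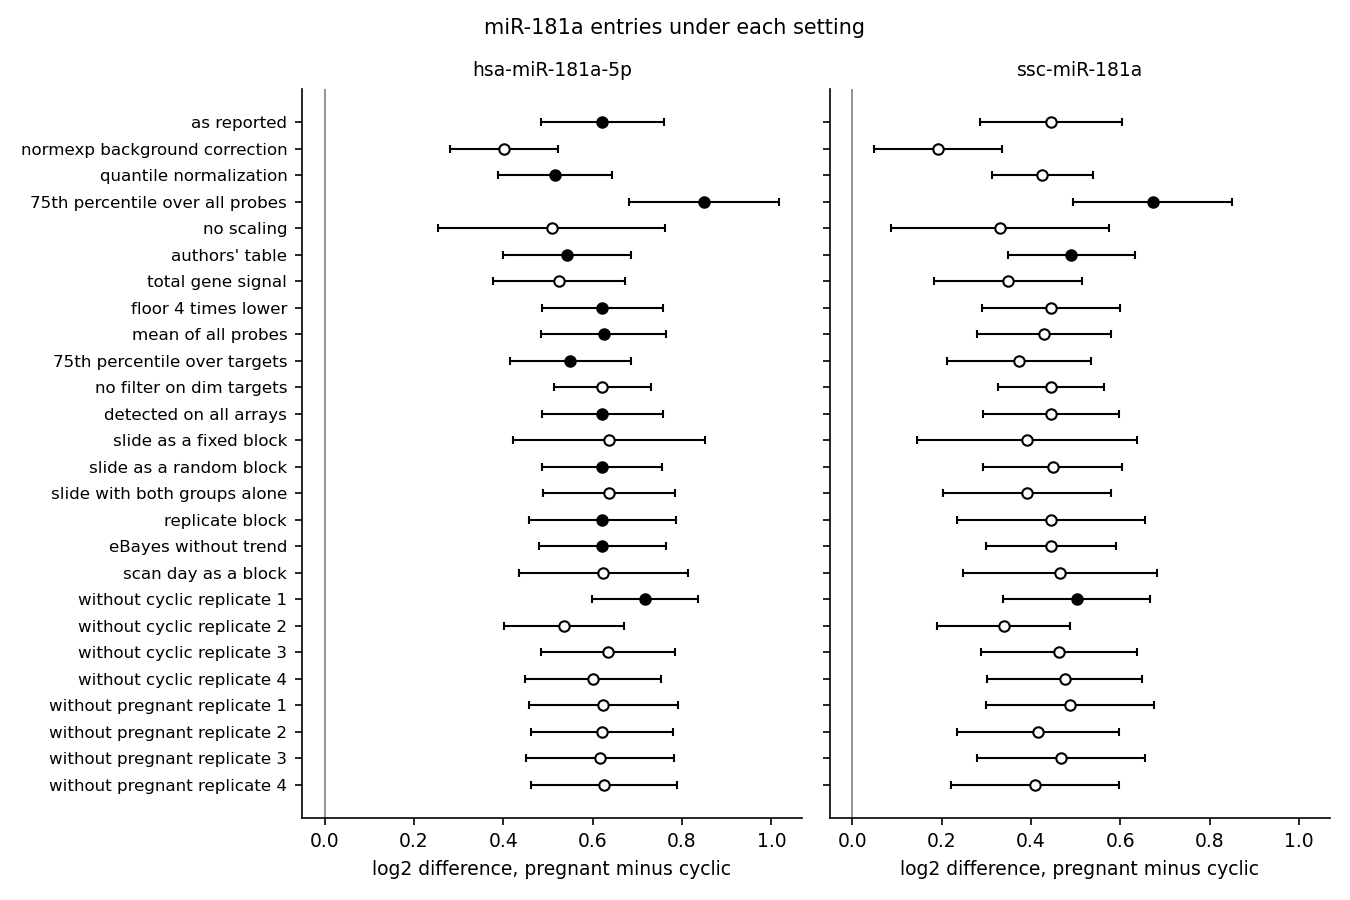
Log2 difference, pregnant minus cyclic, of hsa-miR-181a-5p (left) and ssc-miR-181a (right) as reported and under 25 other settings, with SE as bars and filled points where the adjusted p was under 0.05. All values are positive, from 0.40 to 0.85 for the human entry and from 0.19 to 0.67 for the porcine one. The lower floor, the other filters, the replicate block and the fit without trend leave both differences unchanged.

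The targets whose levels ran most like those of hsa-miR-181a-5p over the 8 arrays were ranked by Pearson's r among all tested targets outside the family. They were ssc-miR-320 (r = 0.970, Spearman's rho 0.786), miR-423-5p (0.955, rho 0.762), hsa-miR-125a-5p (0.948, rho 0.690), miR-424-3p (0.946, rho 0.854) and miR-7134-3p (0.945, rho 0.833). Without the 2 arrays farthest from the median of hsa-miR-181a-5p, cyclic replicates 2 and 4, r was 0.844 to 0.925. All 5 had positive differences, which their choice by r to an entry higher in pregnancy favoured. Those of ssc-miR-320 (0.59 ± 0.15), miR-423-5p (0.83 ± 0.19), miR-424-3p (1.12 ± 0.24) and miR-7134-3p (0.67 ± 0.18) passed in limma's test. That of hsa-miR-125a-5p (0.46 ± 0.16, adjusted p = 0.0800) did not. Of all tested targets, 6.64% passed and were higher, but targets chosen in this way cannot be set against that share. Other entries of miR-320, namely hsa-miR-320a (0.43 ± 0.17), hsa-miR-320b (0.20 ± 0.17) and hsa-miR-320c (0.22 ± 0.18), did not pass (adjusted p from 0.105 to 0.486). In 3 of 4 cyclic arrays miR-424-3p stood at the floor, so its difference depends on the floor. For ssc-miR-181a the most alike were miR-92a (r = 0.939, rho 0.857), ssc-miR-125a (0.931, rho 0.952), miR-7134-3p (0.931, rho 0.881), miR-361-5p (0.931, rho 0.952) and hsa-miR-125a-5p (0.929, rho 0.905). Here r without cyclic replicate 2 and pregnant replicate 4 was 0.789 to 0.896. miR-7134-3p and hsa-miR-125a-5p are thus in both sets. These coefficients were the highest found, so they carry no p-value, and all targets on an array share its RNA and its scaling.

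The first list held other miRNAs known from the development of lymphocytes and myeloid cells. Of its 18 entries named miR-17, miR-92, miR-142, miR-146, miR-150, miR-155 or miR-223, 10 were tested, 0 were higher, 1 was lower and 9 did not pass, with a median difference of −0.15 against 0.08 over all tested targets. The count that passed is near the share over all tested targets (11.4%). At an unadjusted p under 0.05, where that share is 32.2%, 1 was higher (miR-92a, 0.52 ± 0.20) and 2 were lower. The one that passed was ssc-miR-155-5p (−0.89 ± 0.24, limma, adjusted p = 0.0362), a miRNA induced when immune cells are activated. Its pregnant arrays all lay below the cyclic ones, if barely so for pregnant and cyclic replicate 1 (both −1.75). A further tested entry of this miRNA, bta-miR-155, did not pass in limma's test (−0.26 ± 0.19, adjusted p = 0.394). hsa-miR-223-3p, abundant in myeloid cells, read −2.87, −0.10, 0.28 and 1.86 on cyclic replicates 1 to 4 and −2.48 to −2.35 in pregnancy. It did not pass (−2.21 ± 0.75, adjusted p = 0.0800), cyclic replicate 1 lying below all pregnant arrays. miR-17-5p stood at −0.12 ± 0.12 and miR-146a-5p at 0.06 ± 0.20.

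As marker levels, the leukocyte entries (6 of 11 tested) summed to 0.845 to 5.20 times the 75th percentile on the cyclic arrays and to 0.854 to 1.03 times on the pregnant arrays. The fibroblast entries (5 of 6 tested) summed to 4.38 to 10.4 times in the cycle and to 4.60 to 5.52 times in pregnancy. Both ranges were wider in the cycle and overlapped between the groups. A sum is weighted toward the brightest entries of its list. The median difference of the tested entries was −0.42 for leukocytes and −0.38 for fibroblasts, with 1 positive entry in each list. For the other marker lists it ran from −0.14 (epithelium) to 0.30 (miR-202), against 0.08 over all tested targets. The endothelial entries of miR-126 (2 of 2 tested) summed to 6.99 to 9.19 times in the cycle and 8.84 to 10.4 times in pregnancy. For smooth muscle and pericytes (4 of 4 tested) the sums were 1.53 to 2.30 and 1.55 to 2.03 times, for red blood cells (1 of 4 tested) 1.38 to 8.85 and 1.50 to 7.39 times, and for epithelium (2 of 10 tested) 0.166 to 0.205 and 0.137 to 0.208 times. In each of these lists other than the leukocyte one, 0 tested entries passed limma's test, and 1 was lower at an unadjusted p under 0.05, the fibroblast miR-199a-3p (−0.46 ± 0.20, adjusted p = 0.147), against 11.4% and, for lower at an unadjusted p, 9.48% of all tested targets. Both entries of the gonadal miR-202 were tested and did not pass, miR-202-3p standing at 0.81 ± 0.36 (adjusted p = 0.147, unadjusted p = 0.0461) and miR-202-5p at −0.21 ± 0.19. The part of these cell types in the level of miR-181a was not tested.

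A second list held miRNAs of endothelial and vascular signalling, the other setting in which the family is well studied (miR-21, miR-23, miR-24, miR-27, miR-92, miR-126, miR-221 and miR-222). Of its 21 entries 12 were tested, 0 were higher, 1 was lower and 11 did not pass, with a median difference of 0.11. At an unadjusted p under 0.05, 1 was higher, again miR-92a, and 1 was lower. Neither count is above the share over all tested targets, 11.4% adjusted and 32.2% unadjusted. The lower one was mmu-miR-21a-3p, the 3p strand of miR-21 (−2.11 ± 0.41, limma, adjusted p = 0.0115). The brightest members that did not pass were miR-21 (−0.29 ± 0.16), the endothelial miR-126-3p (0.24 ± 0.12), miR-23b (0.28 ± 0.13) and miR-27a (−0.42 ± 0.21), with adjusted p from 0.178 to 0.213.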

How the data were processed

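The authors deposited scanner files with intensity values per spot, background-subtracted by Agilent Feature Extraction (version 10.7.3.1 per the file headers, 10.7 per the submitters' processing notes). Flags per spot are among the other columns of the deposited files. Their deposited table of log2 values, centred per spot with the scaling between arrays unknown, served as an alternative; for cyclic replicates 2 and 4 its deposited columns were taken as a score, with 3 cells above 100 read as missing. Its columns had medians of 0.0108, −0.000283, 0.000689 and −0.000205 for cyclic and −0.000302, 9.45e-05, −9.45e-05 and 0.0318 for pregnant replicates 1 to 4, and r of 0.865 to 0.975 to centred log2 intensities over 166 targets, so they run in the same direction.

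Control spots (715) and outlier spots (384 to 453) of each array were left out. Intensities were averaged per probe and divided by the 75th percentile over probes detected on all arrays (158 to 291). They were floored at the 1st percentile of detected probes, and the brightest probe of a target was used. 0 spots were saturated. Groups were compared with limma 3.58.1 in R 4.3.3 (lmFit, eBayes with trend, 2-sided), adjusted by Benjamini-Hochberg over 211 targets, after a test on simulated data. The labels state no test, and 4 arrays per group limit the precision.

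The members and lists were chosen with earlier results of these data known. Named targets were all miR-181 entries, the 5 most alike to each miR-181a entry, and of each list those that passed and up to 4 of the brightest. Alternatives were normexp background correction (offset 50), other scalings, the authors' table, the total gene signal, other filters, floor and probe summary, slide, replicate and scan day blocks, and leaving out each array; scan day, scaling over targets and the fit over single probes were added after seeing the data. Replicate numbers were not taken to pair the arrays. Plots were made in Python 3.11.15 with matplotlib 3.10.9.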

Additional observations from a re-analysis of the deposited data

Results flagged for a closer look

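On cyclic replicate 1, several of the targets named beside the family stood apart from the other cyclic arrays. mmu-miR-21a-3p read −2.07 there against −0.19 to 0.04 on the others, ssc-miR-202-3p −0.76 against −2.37 to −2.24, ssc-miR-423-5p −0.79 against −1.64 to −1.52 and ssc-miR-424-3p −3.74 while the other 3 were at the floor of −4.67. ssc-miR-92a read −3.90 on pregnant replicate 3 against −3.61 to −3.55 on the other pregnant arrays. About 1 in 20 groups is marked in this way by chance. That rate does not hold for ssc-miR-424-3p, where any reading above the floor on the remaining cyclic array would have been marked. None of the 5 tested miR-181 entries was marked.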

How the results depend on the processing

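Of 25 other settings, hsa-miR-181a-5p passed in 11, ssc-miR-181a in 3 and ssc-miR-181b in 0; ssc-miR-181c and ssc-miR-181d-5p, not detected on all arrays, passed in 0 of 24 each (lowest unadjusted p 0.109, 0.353 and 0.0789). The human entry did not pass with normexp (0.40), no scaling (0.51), the total gene signal (0.52), no filter on dim targets (0.62, over 686 targets), slide as a fixed block or slide 3 alone (0.64, the same contrast), or scan day as a block (0.62); without 1 array it was 0.54 to 0.72. The porcine entry passed with all-probe scaling (0.67) and the authors' table (0.49), and was 0.34 to 0.50 without 1 array. The sign of ssc-miR-181b turned without scaling (−0.028) and with the total gene signal (−0.025), and that of ssc-miR-181d-5p with normexp (0.0027). For ssc-miR-181c it turned with quantile normalization (−0.0085), no scaling (−0.15), the total gene signal (−0.046), the lower floor (−0.0095), scaling over targets (−0.080), slide as a block or slide 3 alone (−0.0044) and scan day (−0.026); without 1 array it was −0.037 to 0.068. The cause was not tested.

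The number of targets that passed, 24 as reported, was 11 with normexp, 15 with quantile normalization, 62 with all-probe scaling (55 higher, 7 lower), 9 without scaling, 10 with the total gene signal, 0 without the filter (limma, 686 targets, 69 at an unadjusted p under 0.05), 14 with slide as a block (5 higher, 9 lower), 2 with scan day as a block and 5 to 78 without 1 array. Replicate numbers did not pair the arrays (correlations of deviations −0.19 to 0.16, 2 of 4 cyclic arrays closest to their own number); with the replicate block 24 targets passed, hsa-miR-181a-5p differed by 0.62 (adjusted p = 0.0324), ssc-miR-181a by 0.44 (adjusted p = 0.176) and the difference between the entries changed by 0.18 (limma, p = 0.184).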
